A study of Mus musculus with 18 samples.

Results

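Axons of embryonic mouse sensory neurons in culture were cut with a blade, and the RNA of the cultures was sequenced 8 or 24 hours after injury (HPI). The comparison took the 3 libraries of 24 HPI against the 3 of 8 HPI, 6 of the 18 libraries of a time course that also held an uninjured control and 1, 3 and 16 HPI. It covered the 13771 of 47643 genes that had over 1 CPM (counts scaled to the library size) in at least 3 of the 18 libraries. Dorsal root ganglia (DRG) of CD-1 mouse embryos (e13.5) were plated as spots, in which the cell bodies sit together and the axons grow outward, in a neuronal medium with the mitotic inhibitor 5-fluorodeoxyuridine (FDU). Both groups, and the control, shared the strain, the embryonic age, the medium and FDU. By the labels the cultures were collected at day in vitro 7 (DIV7), whereas the paper's methods place the cut at DIV7. No uninjured culture was sampled at each of the 2 times, so time since injury and age of the culture cannot be told apart. The labels give replicates 1 to 3 without saying whether they came from separate cultures or animals. The p-values measure the spread left over the 18 libraries once time point and replicate number are fitted, and this spread may be technical.

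A sensory neuron that has lost its axon answers in waves. Immediate early genes and stress-activated transcription factors of the AP-1 and ATF families, such as Jun and Atf3, come on within hours, and a slower program of growth, metabolic and cytoskeletal genes follows. Feedback inhibitors of the MAP kinase pathway are induced with the early genes and end their signal. In DRG neurons, this response is best known for the regenerative growth state that follows a peripheral nerve lesion.

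At 24 HPI, 649 genes were higher and 1011 were lower than at 8 HPI with an adjusted p under 0.05, which is 4.71% and 7.34% of the genes tested (edgeR quasi-likelihood test with time point and replicate number in 1 fit over the 18 libraries, Benjamini-Hochberg adjustment, two-sided). These genes are said below to have passed, and log2 fold changes are given ± SE. In RNA of whole cultures, fewer cells of a type and less RNA per cell cannot be told apart. Most differences were small, with a median log2 fold change of 0.43 among the higher and -0.31 among the lower genes. Over 2-fold, 73 genes were higher and 47 were lower, 0.53% and 0.341% of the genes tested. Of these 120, 119 moved the same way in all 3 replicate numbers, as did 1644 of the 1660 that passed. The 8 and 24 HPI libraries did not overlap in 104 of the 120, against 16.1% of all tested genes. Both counts are partly set by choosing genes on these same libraries, as is the separation of the groups of passing genes named below. Without the replicate number in the model, 216 genes passed, 73 higher and 143 lower, and 46 of them were over 2-fold. Without the third library of 8 HPI, 302 genes were higher, 628 were lower and 96 were over 2-fold, of which 47 were higher, and without the second library of 24 HPI 420 were higher. With upper-quartile scaling the split turned, with 1060 genes higher and 671 lower, while the median log2 fold change of all genes moved from -0.0006 to 0.049, so small changes of large gene groups depend on the scaling.

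**Figure D1:**
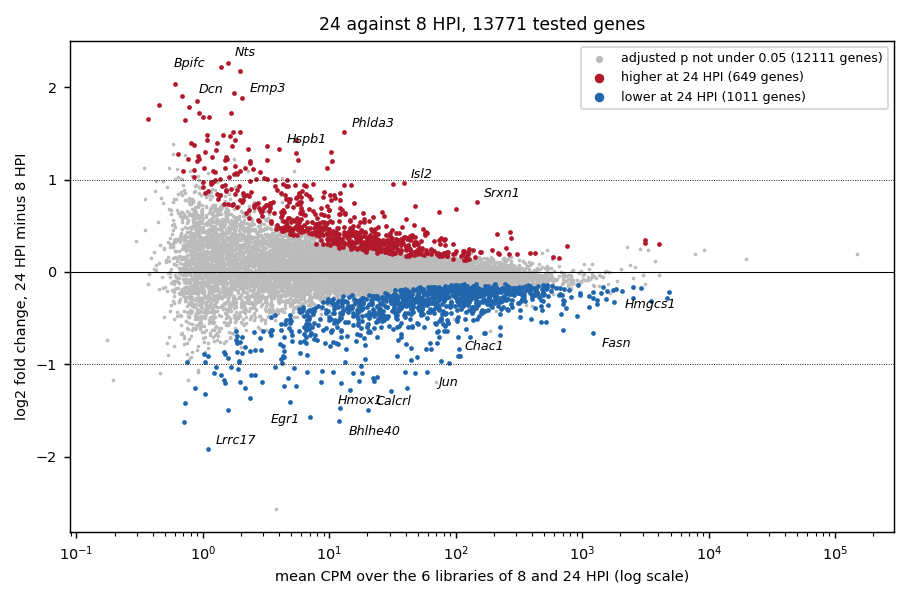
Log2 fold change of 24 HPI minus 8 HPI against the mean CPM over the 6 libraries (log scale), 1 point per tested gene; red and blue points had an adjusted p under 0.05 and dotted lines mark 2-fold. The largest rises, such as Nts and Bpifc, lie at a few CPM or less, whereas the falls over 2-fold reach Jun near 60 CPM, and Hmgcs1 and Fasn, farther to the right, fell by less than 2-fold.

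Depth ranged from 9478891 counts on genes in the second library of 8 HPI to 21259468 in the third of 24 HPI, against a range of 9478891 to 23082327 over the series. The labelled cell type was checked with 7 sensory neuron markers, whose summed level was 8523 to 9087 CPM at 8 HPI and 8129 to 8415 CPM at 24 HPI. Of the 8 markers of satellite glia and Schwann cells, Cdh19 and Sox10 did not pass (adjusted p = 0.166 and 0.165, edgeR), and the summed level of the 8 was 3.08 to 4.66 CPM at 8 HPI and 2.01 to 12.7 CPM at 24 HPI, with the third library of 24 HPI highest. In a wider list of 10 tested glial genes, Ngfr, which the neurons also express, S100b and Mbp were lower and none was higher, while 3 were higher at an unadjusted p under 0.05 and 0 by DESeq2. The summed levels of 4 fibroblast markers were 2.52 to 14.4 and 3.13 to 9.06 CPM, those of 5 myeloid markers 4.54 to 5.94 and 6.49 to 7.24 CPM, and those of 6 erythroid markers 5.26 to 7.37 and 3.31 to 19.8 CPM. Endothelial markers reached at most 1.32 CPM in sum. The part of these cells in the results below was not tested except where their markers are given beside a gene.

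The genes lower at 24 HPI over 2-fold were mostly genes raised at 8 HPI. Of the 47, 43 had a mean level above control at 8 HPI, and 36 lay below control at 24 HPI, with a median log2 fold change against control of 0.98 at 8 HPI and -0.30 at 24 HPI. Their 16 HPI mean lay between those of 8 and 24 HPI in 38. Of all 13771 tested genes, 6840 were above control at 8 HPI, 6860 were below control at 24 HPI and 4563 had their 16 HPI mean between. These comparisons share libraries, so choosing genes that fell partly sets the counts. The medians against control over all tested genes were -0.0009 and 0.0020.

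Transcription factors of the immediate early class led this group. Bhlhe40, a circadian and hypoxia-responsive repressor (ENSMUSG00000030103.11, chromosome 6, 108660629 to 108666925 on the plus strand of GRCm38), had 21.4, 14.2 and 18.3 CPM at 8 HPI and 6.26, 4.54 and 6.96 CPM at 24 HPI. Every 8 HPI library lay above every 24 HPI library, and the difference was 3.06-fold (log2 fold change -1.61 ± 0.13, adjusted p = 8.82e-08). Egr1, an early gene that marks neuronal activity and MAP kinase signaling, had 12.7, 8.71 and 10.3 CPM at 8 HPI and 2.70, 2.43 and 5.31 CPM at 24 HPI (log2 fold change -1.57 ± 0.19, adjusted p = 9.99e-06). Replicate 3 of 24 HPI was the highest of that group and still lay below all 3 libraries of 8 HPI. Fos, the founding AP-1 member, had 7.82, 6.48 and 7.03 CPM at 8 HPI and 2.45, 2.58 and 3.02 CPM at 24 HPI (log2 fold change -1.40 ± 0.25, adjusted p = 0.0006). The groups of Fos did not overlap either.

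Jun, the AP-1 factor required for axon regeneration in peripheral neurons (ENSMUSG00000052684.4, chromosome 4, 95049034 to 95052222 on the minus strand of GRCm38), had 99.0, 71.7 and 70.6 CPM at 8 HPI and 44.8, 33.1 and 34.9 CPM at 24 HPI, with log2 fold change -1.08 ± 0.09, adjusted p = 2.16e-07. The first replicate was the highest library at both times. Its mean over 3 libraries was 39.3 CPM in control, 80.4 CPM at 8 HPI, 68.4 CPM at 16 HPI and 37.6 CPM at 24 HPI, so that its 24 HPI level was close to control. Atf3, the injury-induced partner of Jun, had 65.9, 63.1 and 64.4 CPM at 8 HPI and 18.9, 44.4 and 28.7 CPM at 24 HPI, with log2 fold change -1.10 ± 0.20, adjusted p = 0.000679. Atf3 was highest between the 2 times, with 118 CPM at 16 HPI, and its 24 HPI mean of 30.7 CPM was above the 13.49 CPM of control. The 24 HPI libraries of Atf3 were spread from 18.9 to 44.4 CPM, and without the replicate number in the model its difference did not pass.

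In the list of AP-1 and immediate early genes, 17 of 28 tested members passed, all of them lower, and 11 were over 2-fold. Of all tested genes 7.34% were lower, and 0.341% were lower over 2-fold. The median log2 fold change of the list was -0.44. All 28 had a mean level above control at 8 HPI, and 12 lay below control at 24 HPI, against 6840 and 6860 of the 13771 tested genes. Maff, a small MAF partner of AP-1 and NRF factors, had 19.1, 15.1 and 17.3 CPM at 8 HPI and 9.63, 7.16 and 6.09 CPM at 24 HPI (log2 fold change -1.20 ± 0.12, adjusted p = 1.18e-06). Nfil3, a bZIP repressor that counteracts CREB in injured DRG neurons, had 27.0, 30.4 and 33.5 CPM at 8 HPI and 11.04, 16.4 and 13.46 CPM at 24 HPI (log2 fold change -1.15 ± 0.12, adjusted p = 1.68e-06). Ier3, an early survival gene, fell by 1.13 and Fosl2, an AP-1 member, by 1.01 on the log2 scale, and the 8 and 24 HPI libraries of neither overlapped. Fosb (log2 fold change 0.52 ± 0.33, adjusted p = 0.342) and Junb (0.13 ± 0.20, adjusted p = 0.729) did not pass, and both had overlapping groups. Without the replicate number, 10 of the 28 passed.

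The 26 tested transcription factors that the study listed as induced after injury were chosen on these same libraries, so their fall from a raised level is partly set by that choice. Among them 11 were lower and 2 were higher, against 7.34% and 4.71% of all tested genes. The lower ones include Jun, Fos, Fosl2, Maff, Atf3, Egr1 and Bhlhe40, already counted among the immediate early genes. Ddit3, also lower, is counted again in the integrated stress response list below. Elmsan1, a subunit of histone deacetylase complexes, had 56.0, 54.7 and 64.5 CPM at 8 HPI and 18.3, 26.8 and 28.4 CPM at 24 HPI (log2 fold change -1.26 ± 0.12, adjusted p = 4.56e-07). Arid5a, an RNA-binding regulator of inflammatory transcripts, had 16.7, 19.4 and 17.1 CPM at 8 HPI and 3.19, 8.52 and 7.69 CPM at 24 HPI (log2 fold change -1.47 ± 0.22, adjusted p = 0.000121), a difference that did not pass without the replicate number. The 2 that were higher were Zbtb42 (log2 fold change 1.40 ± 0.35, adjusted p = 0.0103) and L3mbtl3 (log2 fold change 0.47 ± 0.13, adjusted p = 0.0244), and the call was lost in 5 of 13 alternatives for Zbtb42 and in 7 of 14 for L3mbtl3. Rest, the repressor of neuronal genes, had 0.303, 1.06 and 0.809 CPM at 8 HPI and 0.736, 1.03 and 1.28 CPM at 24 HPI and did not pass (log2 fold change 0.61 ± 0.35, adjusted p = 0.278), with its highest mean of 3.67 CPM at 16 HPI.

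**Figure D2:**
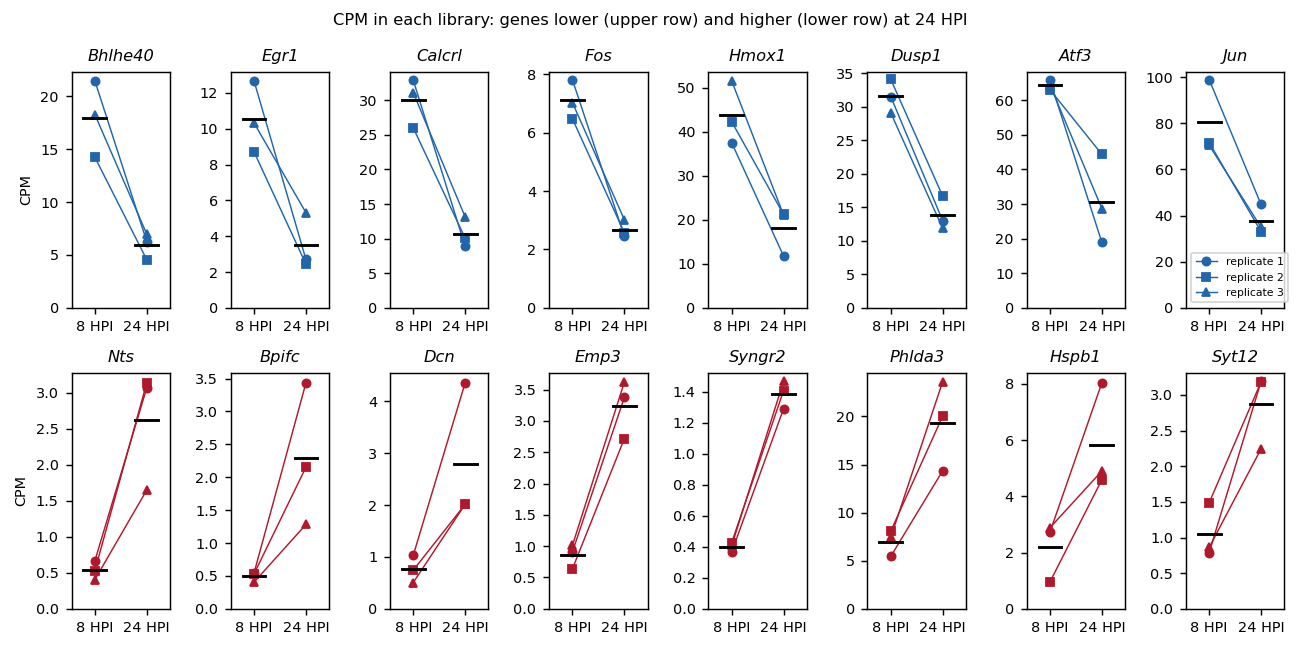
CPM of 16 genes in each library at 8 and 24 HPI (linear axes from 0); lines join libraries with the same replicate number and black bars are group means (n = 3). In the upper row every 8 HPI library lies above every 24 HPI library, and in the lower row every 24 HPI library lies above every 8 HPI library. Of all tested genes, 16.1% had groups that did not overlap, and these 16 were drawn from genes that passed.

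Other genes with large falls, from no single list, were receptors, signaling proteins and secreted proteins. Calcrl, the receptor subunit for the neuropeptide CGRP (ENSMUSG00000059588.13, chromosome 2, 84330626 to 84425411 on the minus strand of GRCm38), had 32.9, 26.0 and 31.1 CPM at 8 HPI and 8.90, 10.1 and 13.1 CPM at 24 HPI. Every library of 24 HPI lay far below all 3 of 8 HPI, and the fall was 2.82-fold (log2 fold change -1.50 ± 0.14, adjusted p = 5.43e-07). Rgs8, which ends G protein signals, had 3.82, 3.08 and 3.34 CPM at 8 HPI and 0.982, 1.64 and 1.33 CPM at 24 HPI (log2 fold change -1.37 ± 0.19, adjusted p = 4.73e-05). Chrm5, a muscarinic acetylcholine receptor, fell by 1.32 on the log2 scale, and this call was lost without the replicate number. Lrrc17, a secreted leucine-rich repeat protein, had 1.70, 1.91 and 1.62 CPM at 8 HPI and 0.491, 0.375 and 0.504 CPM at 24 HPI, the largest fall among protein-coding genes (log2 fold change -1.92 ± 0.36, adjusted p = 0.00107). Fbln5, an elastic fiber protein, fell by 1.50 and Kng2, a kininogen, by 1.42, and both calls were lost without the replicate number, that of Kng2 also without the third 8 HPI or the first 24 HPI library. Vcan, a chondroitin sulfate proteoglycan of the matrix, had 34.5, 7.75 and 17.9 CPM at 8 HPI and 18.4, 3.70 and 5.08 CPM at 24 HPI. The Vcan groups overlapped, with the first replicate high at both times, and its call was lost without the replicate number (log2 fold change -1.28 ± 0.22, adjusted p = 0.000408).

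Hmox1 is the stress-induced enzyme that breaks down heme. It had 37.5, 42.3 and 51.5 CPM at 8 HPI and 11.8, 21.2 and 21.1 CPM at 24 HPI, with log2 fold change -1.29 ± 0.11, adjusted p = 1.44e-07. Its first library was the lowest of each group, and the groups did not overlap. In the NRF2 antioxidant list, 5 of 22 tested genes were lower, Hmox1 among them, and 1 was higher, against 7.34% and 4.71% of all tested genes. The 1 higher gene was Srxn1, which repairs oxidized peroxiredoxins, with 108, 112 and 103 CPM at 8 HPI and 185, 215 and 152 CPM at 24 HPI and log2 fold change 0.76 ± 0.07, adjusted p = 2.57e-07. Srxn1 had 175 CPM at 16 HPI against 93.3 CPM in control, so most of its rise lay before 16 HPI.

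Feedback inhibitors of MAP kinase signaling had 8 lower members and 1 higher member among 19 tested, against 7.34% and 4.71% of all tested genes. Dusp1, a phosphatase that switches off p38, JNK and ERK, had 31.5, 34.1 and 29.1 CPM at 8 HPI and 13.0, 16.7 and 11.9 CPM at 24 HPI (log2 fold change -1.18 ± 0.11, adjusted p = 4.54e-07). Dusp16, a JNK phosphatase, had 6.79, 7.22 and 8.95 CPM at 8 HPI and 4.17, 2.76 and 2.93 CPM at 24 HPI (log2 fold change -1.23 ± 0.15, adjusted p = 7.73e-06). Dusp8, a further phosphatase of the class, had 99.3, 104 and 106 CPM at 8 HPI and 59.3, 69.3 and 69.1 CPM at 24 HPI (log2 fold change -0.64 ± 0.06, adjusted p = 6.88e-07). Errfi1, an inhibitor of EGF receptor signaling, fell by 0.41 on the log2 scale. The 1 member that rose was the ERK phosphatase Dusp7, by 0.27, a call lost in 3 alternatives. The list's median was -0.22, with a median of 0.31 against control at 8 HPI and 0.00 at 24 HPI.

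Promoters of the genes that fell were searched because early genes are known targets of CREB and ATF factors. RefSeq gave a promoter (250 bases before to 50 after a transcription start, GRCm38.p6) for 10145 of 13770 tested gene symbols. The cAMP response element TGACGTCA, searched on both strands, was in 3.76% of these genes and in 3 of the 7 feedback inhibitors that fell and had a promoter, namely Dusp1, Dusp8 and Errfi1. In the immediate early genes that fell it was in 2 of 13, Btg2 and Maff. The AP-1 element TGACTCA was in 4.19% of all genes, in none of the 35 genes with a promoter that fell over 2-fold and in 6 of the 53 that rose over 2-fold. A match is a description and shows no binding. The 250 bases upstream of 2 genes that fell are shown 5′ to 3′ on the strand of the gene with the element in capitals, for Dusp1 at chr17:26508473-26508722 (minus strand) and for Maff at chr15:79347270-79347519 (plus strand).
Dusp1: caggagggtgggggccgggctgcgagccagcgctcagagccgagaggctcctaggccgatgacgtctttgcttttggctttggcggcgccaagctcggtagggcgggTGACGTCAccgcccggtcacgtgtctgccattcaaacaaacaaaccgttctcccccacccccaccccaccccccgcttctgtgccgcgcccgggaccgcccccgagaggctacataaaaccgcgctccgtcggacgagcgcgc
Maff: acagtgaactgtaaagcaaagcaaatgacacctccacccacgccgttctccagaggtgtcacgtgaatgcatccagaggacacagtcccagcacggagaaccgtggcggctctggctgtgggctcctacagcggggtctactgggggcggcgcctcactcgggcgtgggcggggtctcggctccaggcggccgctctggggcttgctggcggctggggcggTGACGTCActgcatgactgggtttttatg

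Transcripts of the integrated stress response list were mostly lower at 24 HPI. In this response the factor ATF4 raises genes of amino acid supply and of stress signaling, and only RNA was measured here. Of 31 tested members 23 were lower and none was higher, against 7.34% of all tested genes that were lower, and the list's median log2 fold change was -0.37. The list had a median of 0.18 against control at 8 HPI and of -0.09 at 24 HPI. Chac1, which degrades glutathione (ENSMUSG00000027313.3, chromosome 2, 119351229 to 119354381 on the plus strand of GRCm38), had 117, 145 and 141 CPM at 8 HPI and 53.6, 82.5 and 79.9 CPM at 24 HPI, with log2 fold change -0.91 ± 0.06, adjusted p = 5.38e-08. Herpud1, a component of ER-associated degradation, had 145, 140.1 and 139 CPM at 8 HPI and 65.3, 74.8 and 86.0 CPM at 24 HPI (log2 fold change -0.91 ± 0.07, adjusted p = 7.53e-08). The groups overlapped for neither gene. Stc2, a secreted stress hormone, had 72.1, 111 and 117 CPM at 8 HPI and 29.9, 59.0 and 67.3 CPM at 24 HPI (log2 fold change -0.97 ± 0.09, adjusted p = 4.54e-07), and Sesn2, an inhibitor of mTORC1, fell by 0.92 on the log2 scale. In both, the first 24 HPI library was the lowest of the 6. Slc7a11, the cystine transporter, had 179.8, 152 and 101 CPM at 8 HPI and 123, 98.9 and 62.6 CPM at 24 HPI, where each 24 HPI library lay below its 8 HPI counterpart while the groups overlapped (log2 fold change -0.61 ± 0.06, adjusted p = 1.2e-06).

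Atf4 itself fell by 0.51 on the log2 scale, from 462 CPM to 324 CPM, and Ddit3, the apoptosis-related factor CHOP, by 0.98. The 8 members that did not pass included Asns, Phgdh, Gdf15 and Fgf21, of which only Fgf21 had a positive log2 fold change. Without the replicate number 4 of the 31 passed, and Stc2, Sesn2 and Slc7a11 were among those that lost the call. Aminoacyl-tRNA synthetases, further targets of ATF4, had 7 of 20 lower, against 7.34% of all tested genes, and none higher. Their median was -0.10, and with upper-quartile scaling 2 were lower. Of 24 genes of the unfolded protein response and ER chaperones, 10 were lower and none was higher, among them the chaperone Hspa5 (log2 fold change -0.39 ± 0.06, adjusted p = 7.43e-05) and the factor Xbp1 (log2 fold change -0.37 ± 0.06, adjusted p = 0.000381). The call of Xbp1 was lost without the replicate number.

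The C/EBP-ATF response element TGATGCAA, through which ATF4 acts, was in 0.779% of the genes with a RefSeq promoter. It was in 4 of the 21 integrated stress response genes that fell and had a promoter, Chac1, Herpud1, Slc7a11 and Vldlr. Of the 35 genes with a promoter that fell over 2-fold it was in 3, Atf3, Fbln5 and Grhl1. Of the 53 that rose over 2-fold it was in 1, 4930438A08Rik. The AP-1 element was in 2 of the 21 stress response genes, Ddit3 and Slc7a1. The upstream bases of 3 genes with the C/EBP-ATF element are shown as above, for Chac1 at chr2:119350992-119351241 (plus strand), for Slc7a11 at chr3:50443614-50443863 (minus strand) and for Atf3 at chr1:191183334-191183583 (minus strand), the last at a start inside the annotated span of the gene.
Chac1: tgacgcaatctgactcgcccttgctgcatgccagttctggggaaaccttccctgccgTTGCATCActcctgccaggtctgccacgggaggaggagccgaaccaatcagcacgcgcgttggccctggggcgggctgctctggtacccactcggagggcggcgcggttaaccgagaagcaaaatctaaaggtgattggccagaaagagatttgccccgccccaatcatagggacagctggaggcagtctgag
Slc7a11: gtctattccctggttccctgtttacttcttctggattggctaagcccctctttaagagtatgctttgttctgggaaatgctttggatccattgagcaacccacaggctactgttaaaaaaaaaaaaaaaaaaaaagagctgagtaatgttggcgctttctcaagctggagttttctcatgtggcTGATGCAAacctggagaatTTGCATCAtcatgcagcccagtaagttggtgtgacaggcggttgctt
Atf3: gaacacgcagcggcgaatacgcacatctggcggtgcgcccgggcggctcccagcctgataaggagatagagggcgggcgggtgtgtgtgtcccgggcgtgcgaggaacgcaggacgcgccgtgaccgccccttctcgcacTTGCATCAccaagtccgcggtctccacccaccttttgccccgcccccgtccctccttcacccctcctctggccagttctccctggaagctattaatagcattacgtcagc

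Transcripts of the cholesterol synthesis list, which also holds regulators such as Insig1, were lower at 24 HPI. All 25 tested members were lower with an adjusted p under 0.05, against 7.34% of all tested genes. The list's median log2 fold change was -0.41. The list had a median of 0.12 against control at 8 HPI, with 23 of 25 above it, and of -0.32 at 24 HPI, with 25 of 25 below it. Of all 13771 tested genes, 6840 were above control at 8 HPI and 6860 below it at 24 HPI. From 8 to 16 HPI its median was -0.30 and from 16 to 24 HPI it was -0.07. Insig1, which holds the SREBP factors back in the ER (ENSMUSG00000045294.11, chromosome 5, 28071363 to 28078662 on the plus strand of GRCm38), had 287, 274 and 262 CPM at 8 HPI and 182, 188 and 147 CPM at 24 HPI (log2 fold change -0.68 ± 0.07, adjusted p = 1.45e-06). Every library of 24 HPI lay below all 3 of 8 HPI. Cyp51, which demethylates lanosterol, fell by 0.54, Mvd, of the mevalonate branch, by 0.66 and Hmgcs1, which makes HMG-CoA, by 0.33 on the log2 scale.

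Fatty acid synthesis, which shares the SREBP factors, had 14 of 21 tested members lower and none higher, with a median of -0.26. Over all tested genes, 7.34% were lower and 4.71% higher. Fasn, the fatty acid synthase, had 1309, 1453 and 1669 CPM at 8 HPI and 857, 937 and 1004 CPM at 24 HPI (log2 fold change -0.66 ± 0.06, adjusted p = 2.72e-07), and no library of 24 HPI reached the lowest of 8 HPI. Scd1, which desaturates stearate, had 955, 1180.3 and 1045 CPM at 8 HPI and 656, 897 and 735 CPM at 24 HPI (log2 fold change -0.48 ± 0.07, adjusted p = 5.28e-05). Fads2, Elovl5 and Acaca, of the desaturation, elongation and malonyl-CoA steps, fell by 0.50, 0.40 and 0.37 on the log2 scale. Without the replicate number, 6 of the 25 cholesterol genes and 4 of the 21 fatty acid genes passed, and with upper-quartile scaling 23 and 12. The sterol element TCACNCCAC was in 1 of 17 cholesterol genes with a promoter, Hmgcs1, against 1.40% of all. The AP-1 element was in 2 of the 17, Dhcr7 and Msmo1, against 4.19% of all. Nuclear genes of the respiratory chain had 0 of 91 passed in either direction by edgeR, 8 at an unadjusted p under 0.05, 0 passed by DESeq2, a median of 0.03 and, with upper-quartile scaling, 4 higher. Glycolysis and hypoxia genes had 8 of 37 lower and none higher.

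**Figure D3:**
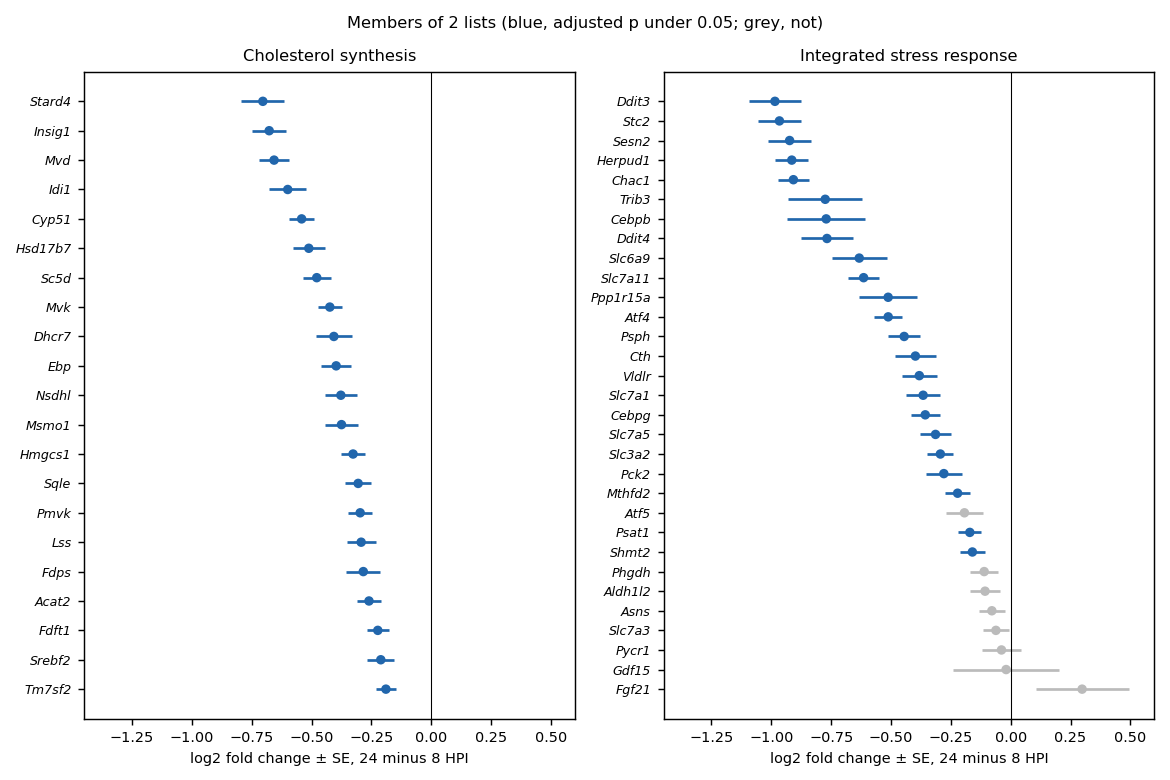
Log2 fold change ± SE of 24 HPI minus 8 HPI for 21 of the 25 tested members of cholesterol synthesis and the 31 of the integrated stress response, in order of size (edgeR fit over 18 libraries); blue points had an adjusted p under 0.05. The 21 cholesterol genes shown and 23 of 31 stress genes lie below 0 with a passing test.

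The genes that were higher at 24 HPI over 2-fold had few counts. Their median level was 0.854 CPM at 8 HPI and 2.29 CPM at 24 HPI, and 44 of the 73 were under 1 CPM at 8 HPI, so that their values rest on few reads. Their medians against control were -0.20 for 8 HPI and 1.11 for 24 HPI on the log2 scale. At 16 HPI the mean of 53 lay between those of 8 and 24 HPI, and in 56 it was at least as near to 24 HPI as to 8 HPI. Of all 13771 tested genes, 4563 and 7644 did so. Of the 120 genes over 2-fold, 5 were noncoding or had no name: Gm19569 and Mir17hg rose by 1.10 and 1.03 on the log2 scale, and Gm12981, Dbpht2 and ENSMUSG00000030771.15 fell by 1.10, 1.07 and 1.62. When only genes over 1 CPM in all 18 libraries were kept, 15 genes were higher over 2-fold and 29 were lower.

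Nts, the precursor of the neuropeptide neurotensin, which injured sensory neurons make (ENSMUSG00000019890.3, chromosome 10, 102481756 to 102490486 on the minus strand of GRCm38), had 0.667, 0.531 and 0.405 CPM at 8 HPI and 3.07, 3.14 and 1.65 CPM at 24 HPI, the largest rise among all genes tested (log2 fold change 2.26 ± 0.37, adjusted p = 0.000312). The third 24 HPI library was the lowest of its group and lay above all of 8 HPI. Bpifc, a lipid-binding protein of the BPI family, had 0.545, 0.531 and 0.405 CPM at 8 HPI and 3.44, 2.15 and 1.28 CPM at 24 HPI (log2 fold change 2.22 ± 0.33, adjusted p = 0.000126). Syngr2, a vesicle protein, had 0.364, 0.425 and 0.405 CPM at 8 HPI and 1.29, 1.40 and 1.47 CPM at 24 HPI (log2 fold change 1.85 ± 0.36, adjusted p = 0.0013). Nts, Bpifc and Syngr2 each had 11 counts or fewer in every library of 8 HPI. Emp3, an epithelial membrane protein, had 0.909, 0.637 and 1.01 CPM at 8 HPI and 3.37, 2.72 and 3.62 CPM at 24 HPI (log2 fold change 1.89 ± 0.21, adjusted p = 3.33e-06). Smim3, a small membrane protein, had 0.727, 0.531 and 0.911 CPM at 8 HPI and 2.45, 3.51 and 1.83 CPM at 24 HPI (log2 fold change 1.72 ± 0.31, adjusted p = 0.000694), with its highest mean of 3.96 CPM at 16 HPI. These 5 kept their call under every alternative in which they were tested.

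Dcn, a proteoglycan that is also a fibroblast marker, had 1.03, 0.743 and 0.506 CPM at 8 HPI and 4.36, 2.01 and 2.01 CPM at 24 HPI (log2 fold change 1.94 ± 0.27, adjusted p = 4.93e-05), with the first library of 24 HPI highest. The other fibroblast markers tested did not pass, with log2 fold changes of 1.09 for Postn (unadjusted p = 0.0259), 0.31 for Col1a2, 0.20 for Pdgfrb and -0.25 each for Col1a1 and Col3a1, so that 4 of 6 with Dcn were above 0. Pdgfra was at 6 counts or fewer in each 24 HPI library. Metrnl, a secreted factor related to meteorin, rose by a log2 fold change of 1.78 and 4930438A08Rik, with no known role given here, by 2.17, and the calls of Dcn, Metrnl and 4930438A08Rik were lost without the replicate number. Cdkn2c, a CDK inhibitor, had 0.364, 0.212 and 0.253 CPM at 8 HPI and 0.982, 1.17 and 1.10 CPM at 24 HPI and Upp1, uridine phosphorylase, had 0.121, 0.425 and 0.202 CPM at 8 HPI and 0.552, 1.17 and 1.14 CPM at 24 HPI, and both lost the call without the third 8 HPI library. Prrg4 and Smco4 rose by 1.81 and 1.72, and both lost the call without the first 8 HPI library. The calls of Upp1 and Smco4 were also lost without the replicate number, and that of Prrg4 with DESeq2. Upp1 had at most 4 counts, Prrg4 at most 5 and Cdkn2c at most 6 in any library of 8 HPI.

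Among p53 targets, 5 of 27 tested were higher and 8 were lower, against 4.71% and 7.34% of all tested genes. Phlda3, an inhibitor of AKT, had 5.45, 8.07 and 7.44 CPM at 8 HPI and 14.4, 20.04 and 23.6 CPM at 24 HPI (log2 fold change 1.51 ± 0.12, adjusted p = 8.82e-08), and the groups stood well apart. Its mean was 6.12 CPM in control, 11.1 CPM at 16 HPI and 19.3 CPM at 24 HPI. Pidd1, the scaffold of the PIDDosome, had 3.999, 4.25 and 4.55 CPM at 8 HPI and 5.21, 8.62 and 9.57 CPM at 24 HPI, Eda2r, a death receptor, had 1.15, 1.49 and 0.911 CPM at 8 HPI and 1.53, 2.34 and 3.21 CPM at 24 HPI, and Ccng1 and Perp rose by 0.25 and 0.52 on the log2 scale. The calls of Pidd1, Eda2r, Ccng1 and Perp were lost without the replicate number. Among the lower members were Gadd45a (log2 fold change -1.08 ± 0.10, adjusted p = 4.61e-07), Sesn2, Btg2 and the polo-like kinases Plk2 and Plk3. Sesn2 also belongs to the integrated stress response list, Btg2 to that of the immediate early genes and Gadd45a to the regeneration-associated list. Gadd45a, a growth arrest gene of injured DRG neurons, had 43.1, 56.3 and 59.4 CPM at 8 HPI and 15.0, 31.6 and 30.5 CPM at 24 HPI, and this call was lost without the replicate number.

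Regeneration-associated genes moved in both directions, with 4 of 36 higher and 8 lower, against 4.71% and 7.34% of all tested genes. Hspb1, a small heat shock protein that supports sensory neuron survival, had 2.73, 0.956 and 2.88 CPM at 8 HPI and 8.04, 4.59 and 4.90 CPM at 24 HPI (log2 fold change 1.34 ± 0.18, adjusted p = 3.43e-05), a call lost without the replicate number. Sox11, a factor of neurite growth, had 204, 156 and 179.9 CPM at 8 HPI and 123, 135 and 143 CPM at 24 HPI (log2 fold change -0.43 ± 0.07, adjusted p = 0.000434). Tubb6, a beta-tubulin, rose by 0.44 and Tnfrsf12a, the TWEAK receptor, by 0.39, and both calls were lost in 7 of 14 alternatives. Gap43, the growth-associated protein of the growth cone, had 1253, 1224 and 1182 CPM at 8 HPI and 1243, 1149 and 1133 CPM at 24 HPI and did not pass (log2 fold change -0.05 ± 0.06, adjusted p = 0.595). Of the KLF and SOX factors, 10 of 17 were lower and none was higher, among them the Krüppel-like factors Klf9 and Klf11, which fell by 0.39 and 0.60 on the log2 scale.

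Sensory neuron identity factors had 6 of 23 higher and 4 lower, against 4.71% and 7.34% of all tested genes. Isl2, a LIM homeobox factor, had 29.2, 20.2 and 28.9 CPM at 8 HPI and 42.6, 45.4 and 65.3 CPM at 24 HPI (log2 fold change 0.96 ± 0.12, adjusted p = 1.5e-05). Its libraries of 24 HPI all lay above those of 8 HPI, and its mean in control was 38.1 CPM. Isl1, its paralog, rose by 0.36 and Pou4f1, the POU factor of sensory neurons, by 0.20. Among the lower members, Ebf2 fell by 0.54, Insm1 by 0.38 and Etv5 by 0.26. In a separate list of 15 sensory neuron markers, 3 were higher and 3 were lower. Elavl4, a neuronal RNA-binding protein, had 261, 207 and 214 CPM at 8 HPI and 349, 277 and 298 CPM at 24 HPI (log2 fold change 0.44 ± 0.06, adjusted p = 7.43e-05). The calls of Isl2, Isl1, Pou4f1, Ebf2, Insm1, Etv5 and Elavl4 were lost without the replicate number. Of the general markers, Avil and Prph did not pass (log2 fold change -0.04 and -0.03) and turned in sign under other settings, and Calca (log2 fold change -0.19 ± 0.09, adjusted p = 0.162) differed far more between replicate numbers than between times, with 509.9, 142 and 174 CPM at 8 HPI and 501, 109 and 152 CPM at 24 HPI.

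In the list of tubulins, stathmins and growth cone microtubule genes, 14 of 31 were lower and 2 were higher, against 7.34% and 4.71% of all tested genes, with a median log2 fold change of -0.15, and with upper-quartile scaling 8 were lower. Tubb3, the neuronal beta-tubulin, had 2836, 2893 and 2564 CPM at 8 HPI and 2604, 2277 and 1997 CPM at 24 HPI (log2 fold change -0.28 ± 0.05, adjusted p = 0.00104), Tubb4b fell by 0.36 and Tuba1c by 0.28. Tubulin paralogs are near-identical in sequence, and the counting may split their reads. Map2, the dendritic microtubule protein, rose by 0.20. Without the replicate number none of the 31 passed, and the libraries of Tubb3, Tubb4b, Tuba1c and Map2 overlapped between the times. Axonal motors had 5 of 38 lower and 1 higher.

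Axon guidance genes had 11 of 56 higher and 7 lower, against 4.71% and 7.34% of all tested genes, with a median of 0.00. Slit2, the repellent ligand of ROBO receptors, had 11.6, 9.45 and 9.61 CPM at 8 HPI and 21.9, 20.8 and 15.8 CPM at 24 HPI (log2 fold change 0.95 ± 0.13, adjusted p = 3.56e-05). Unc5d, a netrin receptor, had 13.7, 9.13 and 4.20 CPM at 8 HPI and 26.3, 16.6 and 8.79 CPM at 24 HPI, where the first replicate was the highest and replicate 3 the lowest at both times (log2 fold change 0.95 ± 0.10, adjusted p = 1.29e-06). Ntn4, a netrin, rose by 1.11 and Sema6c, a transmembrane semaphorin, by 0.78 on the log2 scale. Epha4, an ephrin receptor, fell by 0.55. The calls of Slit2, Unc5d and Epha4 were lost without the replicate number, whereas those of Ntn4 and Sema6c held in all 14 alternatives. Cadherins and protocadherins had 10 of 77 lower and none higher, with Cdh10 the only 1 over 2-fold (log2 fold change -1.03 ± 0.19, adjusted p = 0.000906), and without the replicate number none passed. Reads of the clustered protocadherins may be split between near-identical members.

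Of all tested genes 7.34% were lower and 4.71% higher, and the genes of excitability and synapses were counted against these shares. Among 14 genes listed as voltage-gated sodium channels, which include the leak channel Nalcn, 5 passed, 4 of them lower. Among 20 genes listed as calcium channels 5 were lower. Among 50 potassium channels 6 were lower and 2 were higher, and among 21 sensory transduction channels 6 were lower. The potassium channels lay near the shares over all genes. Scn8a, the channel of nodes and axons, had 86.6, 105 and 114 CPM at 8 HPI and 67.1, 80.8 and 86.5 CPM at 24 HPI (log2 fold change -0.38 ± 0.06, adjusted p = 0.000141). Piezo2, the touch channel, fell by 0.27 on the log2 scale. Of the lower genes in the calcium channel list, Cacng3, Cacng8 and Cacng2 are auxiliary subunits of AMPA receptors. They fell by 0.69, 0.67 and 0.42. Of 39 ligand-gated transmitter receptors 9 were lower and 1, the kainate receptor Grik3, was higher. Synaptic vesicle and SNARE genes had 10 of 42 lower and 1 higher, and with upper-quartile scaling 6 were lower. The 1 that rose was Syt12, a synaptotagmin that does not bind calcium, with 0.788, 1.49 and 0.860 CPM at 8 HPI and 3.19, 3.18 and 2.24 CPM at 24 HPI (log2 fold change 1.51 ± 0.23, adjusted p = 0.000166), and it held in all 13 alternatives in which it was tested. Calls of Scn8a, Piezo2, Cacng3, Cacng8, Cacng2 and Grik3 were lost without the replicate number. Of 19 genes listed as neuropeptides, only Nts was higher. Pcsk2, a prohormone processing enzyme in that list, fell by 0.20 and passed in only 6 of 14 alternatives. These counts lay near the shares over all genes.

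Where edgeR passed no higher member of a list, 0 genes of cholesterol synthesis, fatty acid synthesis, the integrated stress response, the aminoacyl-tRNA synthetases, the calcium channels and the sensory transduction channels were higher at an unadjusted p under 0.05. There was 1 such gene among the immediate early genes, the KLF and SOX factors and the glycolysis and hypoxia genes each, 2 each among the unfolded protein response and the cadherins, and 3 in gp130 signaling, and DESeq2 passed 0 higher genes in every one of these lists. Without the replicate number, the lower members that passed were 7 of the study's transcription factors, 4 feedback inhibitors, 2 KLF and SOX factors, 2 matrix, integrin and metalloprotease genes and 1 gene each of the aminoacyl-tRNA synthetases, the unfolded protein response, the regeneration-associated genes, the p53 targets, the NRF2 list and the synaptic genes. The higher ones were 2 guidance genes and 1 gene each of the p53 targets, the regeneration-associated genes, the NRF2 list, the synaptic genes and the neuropeptides, while no gene of the 4 kinds of channel, the identity factors, the transmitter receptors, the motors or the cell cycle list passed in either direction. With upper-quartile scaling, 8 p53 targets were higher, and 1 sodium channel, 3 potassium channels, 4 transmitter receptors, 1 SMAD or TGF-beta gene, 1 gp130 gene, none of the DLK and JNK kinases and 5 glycolysis or hypoxia genes were lower.

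**Figure D4:**
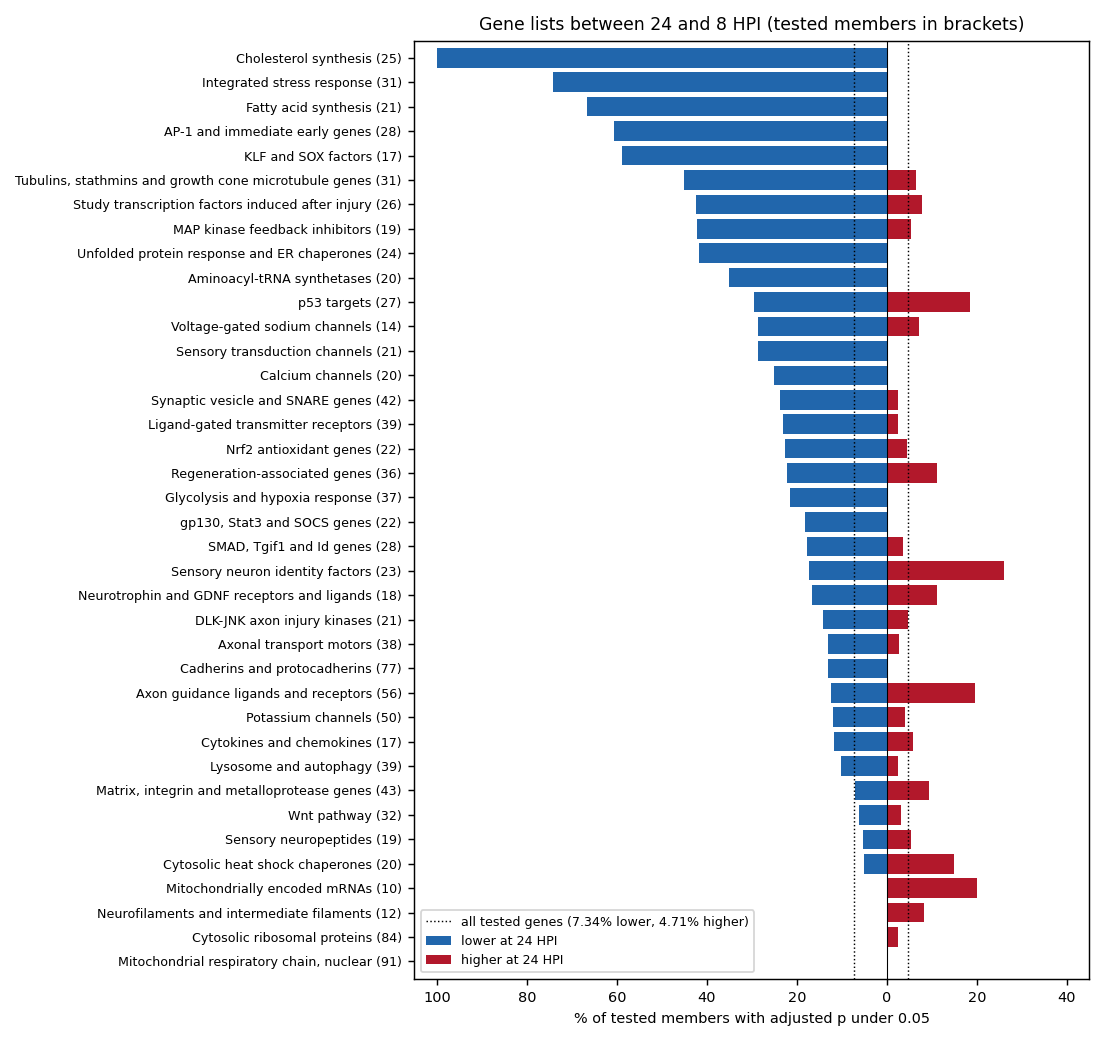
Share of the tested members of each gene list that were lower (blue, to the left) or higher (red, to the right) at 24 HPI with an adjusted p under 0.05; dotted lines give the shares over all tested genes, 7.34% lower and 4.71% higher. Cholesterol synthesis, the integrated stress response, fatty acid synthesis and the immediate early genes reach farthest to the left, and the identity factors, guidance genes and p53 targets have the widest bars to the right among the lists shown with over 10 tested genes. Cell type markers and the cell cycle list are not shown.

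Other signaling pathways had between 3 and 6 passing members each, against 7.34% lower and 4.71% higher over all tested genes. Of 22 genes of gp130, STAT3 and SOCS signaling 4 were lower and none was higher, of 21 genes of the DLK and JNK axon injury kinases 3 were lower and 1 was higher, of 28 SMAD, TGF-beta and ID genes 5 were lower and 1 was higher, and of 32 Wnt genes 2 were lower and 1 was higher. Tgfb3, a TGF-beta ligand, had 2.42, 0.956 and 1.87 CPM at 8 HPI and 5.46, 3.28 and 3.11 CPM at 24 HPI (log2 fold change 1.08 ± 0.20, adjusted p = 0.000948) and Fzd5, a Wnt receptor, fell by 0.97 on the log2 scale. Both calls were lost without the replicate number. Among matrix, integrin and metalloprotease genes 4 of 43 were higher and 3 were lower. Plat, the tissue plasminogen activator that growth cones release, had 54.4, 41.1 and 36.1 CPM at 8 HPI and 27.4, 26.7 and 24.1 CPM at 24 HPI (log2 fold change -0.73 ± 0.08, adjusted p = 2.58e-06) and its groups did not overlap. Adamts1, a protease that cuts proteoglycans, fell by 1.19, while Mmp19, a metalloprotease, and the integrin subunit Itga6 rose by 0.85 and 1.01. The calls of Adamts1, Mmp19 and Itga6 were lost without the replicate number.

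Of the genes of the cell cycle and DNA replication, 5 of 19 were higher in cultures kept with a mitotic inhibitor, 2 of 19 by DESeq2 and 0 without the replicate number. None, 0 of 19, were lower by edgeR, by DESeq2 or at an unadjusted p under 0.05. Over all tested genes, 4.71% were higher and 7.34% lower by edgeR. Mcm6, a replicative helicase subunit, had 15.6, 13.2 and 12.8 CPM at 8 HPI and 22.5, 18.5 and 17.8 CPM at 24 HPI (log2 fold change 0.50 ± 0.08, adjusted p = 0.000209), Ccne1, cyclin E1, rose by 0.62, and Top2a, a topoisomerase of dividing cells, was at 0.667, 0.743 and 0.405 CPM at 8 HPI and 2.45, 0.702 and 1.47 CPM at 24 HPI. The calls of all 3 were lost without the replicate number. Cytosolic ribosomal proteins had 2 of 84 higher and none lower by edgeR or DESeq2, with 1 lower at an unadjusted p under 0.05, and with upper-quartile scaling 16 were higher. Of 10 mitochondrially encoded mRNAs, mt-Nd1 and mt-Nd2 were higher, by 0.31 and 0.32 on the log2 scale. Each passed in 7 of 13 alternatives, and neither by DESeq2 or without the replicate number. The 7 residual rRNA fragments, which held 134333 to 231527 CPM in sum in the 6 libraries, did not pass, with 0 at an unadjusted p under 0.05 and 0 passed by DESeq2.

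**Figure D5:**
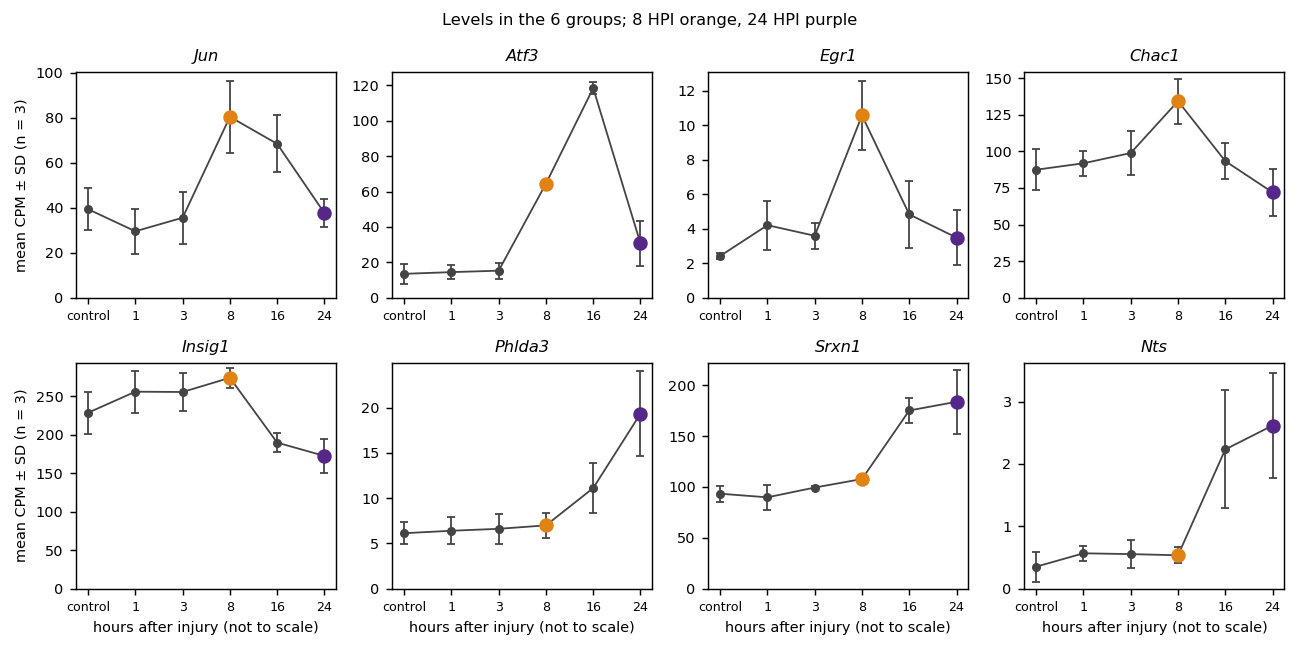
Mean CPM ± SD (n = 3) of 8 genes in control and at 1, 3, 8, 16 and 24 HPI, with 8 HPI in orange and 24 HPI in purple; the time axis is not to scale. Jun, Egr1 and Chac1 are highest at 8 HPI, Atf3 at 16 HPI, Insig1 falls below control by 16 HPI, and Phlda3, Srxn1 and Nts are highest at 24 HPI.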

How the data were processed

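RNA of 18 cultures was sequenced, 3 in each of 6 groups, and 6 libraries were compared. The deposited values are raw counts per gene, which the authors made without normalization. The submitters' processing notes name FastQC, STAR, HTSeq, DESeq2 and mm10, while the paper's methods name cutadapt, STAR and featureCounts, and each table ends in 5 entries named as htseq-count names them. The labels name rRNA depletion and SMARTer cDNA. Whether counting used the strand is not given in the sources used here, so overlapping and antisense genes cannot be told apart. Names and positions came from GENCODE vM21 on GRCm38, which matched 47224 of 47643 identifiers, and promoters from RefSeq.

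The test was that of edgeR 4.0.16 in R 4.3.3 (TMM, 1 quasi-likelihood fit to 18 libraries with terms for time point and replicate number, Benjamini-Hochberg, two-sided), with DESeq2 1.42.0 as an alternative. Figures were drawn with matplotlib in Python. A gene passed with an adjusted p under 0.05, and 2-fold is an absolute log2 fold change over 1. SE is the log2 fold change divided by the square root of F. CPM used TMM-scaled library sizes, and SD is over 3 libraries. Reads carry no molecular identifiers, so counts are not independent molecules. The replicate numbers paired the libraries: deviations from the group means correlated across genes between 8 and 24 HPI libraries of one number with r of 0.67, 0.53 and 0.54, and of different numbers with r from -0.46 to -0.04. No pair of libraries was identical. Counts of 13771 genes were also simulated from the means and dispersions of this same fit. In them, 87 of 100 genes changed 2-fold and 99 of 100 changed 4-fold were recovered, with 8 false calls. They were tested with the model that made them, so this does not show how the test behaves on the real libraries.

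Named genes were the 12 protein-coding genes with the largest change in each direction among those over 2-fold and moved alike in all 3 replicate numbers, up to 5 passing members of each list in each direction by p, the factors Jun, Atf3, Fos, Fosb, Egr1 and Rest, the cell type markers, and up to 3 noncoding genes in each direction. A few genes that fall under the rule are not reported here. Members named beyond these were chosen after their values were seen. The comparison, the lists and their members were chosen with earlier results of these data known, so list counts are a description and no set test was run. The alternatives were other scalings, DESeq2, other filters, no replicate number, the 6 libraries alone, residual rRNA, mitochondrial and globin genes left out, and each of the 6 libraries left out.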

Additional observations from a re-analysis of the deposited data

How the results depend on the processing

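Without the replicate block, 216 genes passed in place of 1660, 73 higher and 143 lower, with 46 over 2-fold, 20 higher and 26 lower, and all 216 were among the 1660. The block entered as the pairing of the replicate numbers, so this fit puts the spread between numbers into the error. Upper-quartile factors gave 1060 higher and 671 lower genes, 61.2% higher against 39.1% with TMM. With genes over 1 CPM in all 18 libraries, 44 genes were over 2-fold, 15 higher and 29 lower, out of 11870 tested. Leaving out each library in turn gave 930 to 1367 passed genes, 302 to 509 higher and 628 to 858 lower, 96 to 135 over 2-fold, 47 to 89 of them higher and 46 to 51 lower, where the lowest counts other than 46 came without the third 8 HPI library. The log2 fold change of Avil turned to 0.00800 with upper-quartile factors and ran from -0.0854 to 0.0149 with a library left out, and that of Prph turned to 0.0189 and ran from -0.0603 to 0.00499, neither passing in any fit. The cause of these changes was not tested. DESeq2's size factors, the DESeq2 Wald test, at least 10 counts as filter (23606 genes tested), the 6 libraries alone and the residual rRNA, mitochondrial and globin genes left out gave between 1358 passed genes, with the DESeq2 Wald test, and 1660. Genes that were higher over 2-fold had a median of 0.854 CPM at 8 HPI, and the second 8 HPI library, with 9478891 counts, is the shallowest of the series.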

Other observations

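Genes of the circadian clock were chosen for description after their values were seen. They are named singly and are no share of a list, whereas 7.34% of all tested genes were lower and 4.71% higher. Ciart, a repressor of the clock, had 11.8, 17.5 and 14.5 CPM at 8 HPI and 5.28, 7.35 and 7.78 CPM at 24 HPI (log2 fold change -1.08 ± 0.11, adjusted p = 1.5e-06, edgeR). Per3 fell by 1.08, Per1 by 0.79, Per2 by 0.55 and Dbp by 0.39 on the log2 scale. Per1 is also counted in the list of immediate early genes. The positive factor Clock rose by a log2 fold change of 0.25, while Arntl (0.56, adjusted p = 0.0501) and Nr1d1 (-0.12, adjusted p = 0.635) did not pass. All libraries of a time point may share a time of day, which the labels do not give, so hours since injury and clock time cannot be told apart.

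A few genes of antigen presentation and interferon responses, also chosen after their values were seen, were higher at 24 HPI at low levels. Nlrc5, the activator of MHC class I genes, had 0.485, 0.637 and 0.405 CPM at 8 HPI and 1.29, 1.64 and 1.51 CPM at 24 HPI (log2 fold change 1.67 ± 0.34, adjusted p = 0.00226, edgeR). Tap1, the peptide transporter, rose by 1.22, Trim21 by 1.24, Gbp7 by 1.12 and B2m by 0.58. H2-K1 (-0.19, adjusted p = 0.33) and H2-D1 (0.03, adjusted p = 0.881) did not pass, and Stat2 fell by 0.77, from 100.1, 81.3 and 87.9 CPM to 53.3, 49.9 and 54.7 CPM. Summed myeloid markers were 4.54 to 5.94 CPM at 8 HPI and 6.49 to 7.24 CPM at 24 HPI, and their part in these values was not tested.

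In the remaining lists, the counts of passed members stand against 4.71% higher and 7.34% lower over all tested genes. Of 20 cytosolic heat shock chaperones 3 were higher and 1 was lower, of 18 neurotrophin and GDNF receptor and ligand genes 2 were higher and 3 were lower, of 17 cytokines and chemokines 1 was higher and 2 were lower, of 39 lysosome and autophagy genes 1 was higher and 4 were lower, and of 12 neurofilament and intermediate filament genes 1, Vim, was higher. Ngfr, the low-affinity neurotrophin receptor, fell by 0.38. Areg, a ligand of the EGF receptor, had 12.2, 6.37 and 3.996 CPM at 8 HPI and 6.38, 3.70 and 2.43 CPM at 24 HPI, lower in each replicate number while the groups overlapped (log2 fold change -0.87 ± 0.17, adjusted p = 0.0017, edgeR). The calls of Vim, Ngfr and Areg were lost without the replicate number.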
